A study of Mus musculus with 8 samples.

Results

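The interleukin-1 and interleukin-18 axis is described here by 4 genes, Il1r2, Il18r1, Il18rap and Casp1, in CD8 T cells of mice with and without interleukin-2. They are 4 of the 11723 genes in the deposited table, found by their Entrez identifiers, and all 4 passed the filter on low values. They were chosen by their measured levels in IL-2-KO against WT, so those levels are given as a description, without a test. The cells came from peripheral lymph nodes of BALB/c mice aged 12 days and were purified on a flow sorter, and their RNA was sequenced in bulk. The 4 WT libraries pooled 5, 5, 3 and 2 mice, which yielded 115, 28.7, 1.3 and 1.3 times 1000000 cells. The IL-2-KO group, which lacks the gene of interleukin-2, held 4 libraries made from 26.7, 42.6, 1.1 and 0.4 times 1000000 cells, and pooling is not stated for it. The design text calls the samples biological replicates, adds spleen to the tissue, and writes WT/HET for the controls, where the sample labels have WT alone.

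Interleukin-1 acts through a receptor made of IL1R1 and the accessory chain IL1RAP, and interleukin-18 through a receptor made of IL18R1 and IL18RAP. Both recruit the adaptor MYD88 and the IRAK kinases and lead to NF-kB. IL1R2 binds interleukin-1 but lacks the signalling domain and is known as a decoy, and caspase-1, the product of Casp1, cleaves the precursors of interleukin-1 beta and interleukin-18 in inflammasomes. In mouse T cells, interleukin-18 together with interleukin-12 is known to drive interferon gamma, and Il1r2 is known from neutrophils and regulatory T cells.

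The 3 receptor genes are neighbours on chromosome 1 (GRCm38). Il1r2 (Entrez 16178) spans 40084692 to 40125230, Il18r1 (16182) 40465552 to 40500854, and Il18rap (16174) 40515362 to 40551707. Casp1 (12362) lies on chromosome 9 from 5298517 to 5307281, and Casp4, the gene of mouse caspase-11, starts 1567 bases after its end. The upstream sequences of Il1r2, Casp1 and Casp4, the 3 genes of this group with the largest differences, are shown with the motifs found in them, followed by those of the interleukin-18 receptor chains. They come from the RefSeq promoter table (GRCm38.p6), plus strand, 250 bases before a listed start site, trimmed to the longest stretch that no annotated UTR covers. The start site listed for Il1r2 lies inside the annotated span of the gene, as does the start site of Il18r1 that is shown. Capitals mark the CACGTG E-box, the STAT motif TTCNNNGAA and the NF-kB motif.
Il1r2 (chr1:40085843-40085984): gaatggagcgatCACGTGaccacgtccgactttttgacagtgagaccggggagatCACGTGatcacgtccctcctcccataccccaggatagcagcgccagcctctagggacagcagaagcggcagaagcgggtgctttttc
Casp1 (chr9:5298267-5298516): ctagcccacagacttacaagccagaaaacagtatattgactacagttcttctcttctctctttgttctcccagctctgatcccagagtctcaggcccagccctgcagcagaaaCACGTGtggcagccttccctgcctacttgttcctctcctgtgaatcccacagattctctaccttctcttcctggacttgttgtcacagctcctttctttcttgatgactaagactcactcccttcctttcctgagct
Casp4 (chr9:5308599-5308827): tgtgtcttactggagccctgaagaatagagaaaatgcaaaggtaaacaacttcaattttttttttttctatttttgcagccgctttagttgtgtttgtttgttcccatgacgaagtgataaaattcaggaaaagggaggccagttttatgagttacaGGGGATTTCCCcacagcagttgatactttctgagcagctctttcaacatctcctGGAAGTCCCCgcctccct
Il18r1 (chr1:40465811-40465969): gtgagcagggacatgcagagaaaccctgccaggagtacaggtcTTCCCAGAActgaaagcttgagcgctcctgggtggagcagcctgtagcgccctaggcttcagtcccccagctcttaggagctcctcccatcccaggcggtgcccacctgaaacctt
Il18rap (chr1:40515112-40515361): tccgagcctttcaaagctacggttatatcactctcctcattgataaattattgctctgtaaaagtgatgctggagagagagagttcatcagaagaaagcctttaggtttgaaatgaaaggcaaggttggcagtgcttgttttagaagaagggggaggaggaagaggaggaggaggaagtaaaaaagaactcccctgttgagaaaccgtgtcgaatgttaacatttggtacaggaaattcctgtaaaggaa

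The Il1r2 stretch holds 2 copies of the E-box, 238 and 195 bases before the start site, and the Casp1 stretch holds 1, at 137 bases. Of 32851 promoter windows of 250 bases, 6.02% held at least 1 CACGTG and 0.429% at least 2. Casp4 held NF-kB motifs at 93 and 92 bases, which overlap each other, and at 39 bases, against 9.55% of windows with at least 1. Il18r1, which has 3 listed start sites, held TTCNNNGAA at 219 and 152 bases before the start site shown, the first of them outside the printed stretch, and Il1r2 held it at 111 bases, also outside. That motif was in 7.02% of windows. The Il18rap window, and the windows of the other 2 start sites of Il18r1, held none of the motifs searched. The motifs searched on both strands were those 3 together with TGANTCA (AP-1), AGGTGTGA (T-box), TGTGGT (RUNX) and the interferon-stimulated response element, picked after the sequences had been seen. A match is a description of these letters and not a binding site.

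Il1r2 went from traces in WT to a clear level in every IL-2-KO library. WT replicates 1 to 4 held 0.0599, 0.590, 0 and 0 CPM (counts per 1000000 of the TMM-scaled library size, as in the deposited table), which is 1, 7, 0 and 0 reads. The IL-2-KO replicates held 12.9, 11.6, 31.0 and 5.37 CPM, or 193, 192, 576 and 96 reads. The groups did not overlap, and replicate 3 was the highest and replicate 4 the lowest of the IL-2-KO libraries. A count of 0 in WT replicates 3 and 4 allows a level of up to 0.173 and 0.181 CPM (3 counts). The means were 0.162 ± 0.286 in WT and 15.2 ± 11 in IL-2-KO (SD, n = 4 each), a 21.0-fold difference on the log2(CPM + 0.5) scale, which understates it because the WT mean and 3 of the 4 WT libraries lay below the added 0.5. From the pooled reads, 8 against 1057, the ratio was 121, with an exact 95% interval of 61.4 to 282. Exact intervals of pooled reads and floors, here and below, cover counting error only and not the spread between libraries. The limma intervals given further below do rest on that spread. For the members the exact intervals are no test, because these genes were chosen on this contrast. Il1r2 passed the filter (at least 1 CPM in at least 4 libraries) through the IL-2-KO libraries alone. For Casp1, described next, WT replicate 2 was the only WT library at 1 CPM or more, so it too passed through IL-2-KO.

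Casp1 showed the same form. WT replicates 1 to 4 held 0.120, 2.02, 0.633 and 0.181 CPM (2, 24, 11 and 3 reads). IL-2-KO replicates 1 to 4 held 10.9, 9.64, 24.6 and 9.28 CPM (162, 160, 457 and 166 reads). The lowest IL-2-KO library thus stood above the highest WT library, and 3 of the 4 IL-2-KO values lay close together with replicate 3 above them. The means were 0.739 ± 0.886 and 13.6 ± 7.36 CPM (SD, n = 4 each), a 12.4-fold difference on the log2(CPM + 0.5) scale, and the ratio of pooled reads was 21.7 (exact 95% interval 15.8 to 30.6). Groups without overlap and with IL-2-KO higher were found for 12.9% of all 11530 genes tested, and 19.2% of them passed limma in either direction. Since the members were chosen on this contrast, nothing is read from these shares. In bulk samples like these, more cells of a type and more RNA per cell cannot be told apart.

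The chains of the interleukin-18 receptor differed far less. Il18r1, the ligand-binding chain, held 52.6, 64.7, 65.6 and 63.2 CPM in WT and 75.4, 101, 111 and 59.6 CPM in IL-2-KO replicates 1 to 4. The first 3 IL-2-KO libraries stood above all WT libraries, and replicate 4 lay within the WT range. The means were 61.5 ± 6.03 and 86.8 ± 23.6 CPM (SD, n = 4 each), a log2 difference of 0.46 against a pooled within-group SD of 0.31. Il18rap, the signalling chain, held 62.0, 66.7, 51.5 and 70.5 CPM in WT and 38.3, 86.9, 70.6 and 92.4 CPM in IL-2-KO. IL-2-KO replicate 1 was the lowest of all 8 libraries and replicate 4 the highest. The means of 62.7 ± 8.24 and 72.1 ± 24.3 CPM differed by 0.13 on the log2 scale, less than the pooled SD of 0.43.

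The balance of both chains was spread more widely in IL-2-KO than in WT, a difference in spread that was not tested. Within a library, Il18rap over Il18r1 was 1.18, 1.03, 0.784 and 1.12 in WT, a mean of 1.03 ± 0.173. In IL-2-KO it was 0.509, 0.860, 0.634 and 1.55, a mean of 0.888 ± 0.464 (SD, n = 4 each), so that replicate 4 had the highest ratio of all and replicate 1 the lowest. The group means lay within the spread of the replicates. Per kilobase of annotated exon, a level that can be set beside other genes, Il18r1 and Il18rap stood at 12.8 CPM each in WT and at 18 and 14.7 in IL-2-KO. Il1r2 went from 0.114 to 10.7 CPM per kb and Casp1 from 0.494 to 9.08. The order in WT was therefore both interleukin-18 receptor chains, which did not differ beyond their spread, then Casp1 and Il1r2, whose WT ranges overlapped. In IL-2-KO the means kept Il18r1 and Il18rap above Il1r2 and Casp1, with neighbours in this order within the spread of the replicates.

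**Figure D1:**
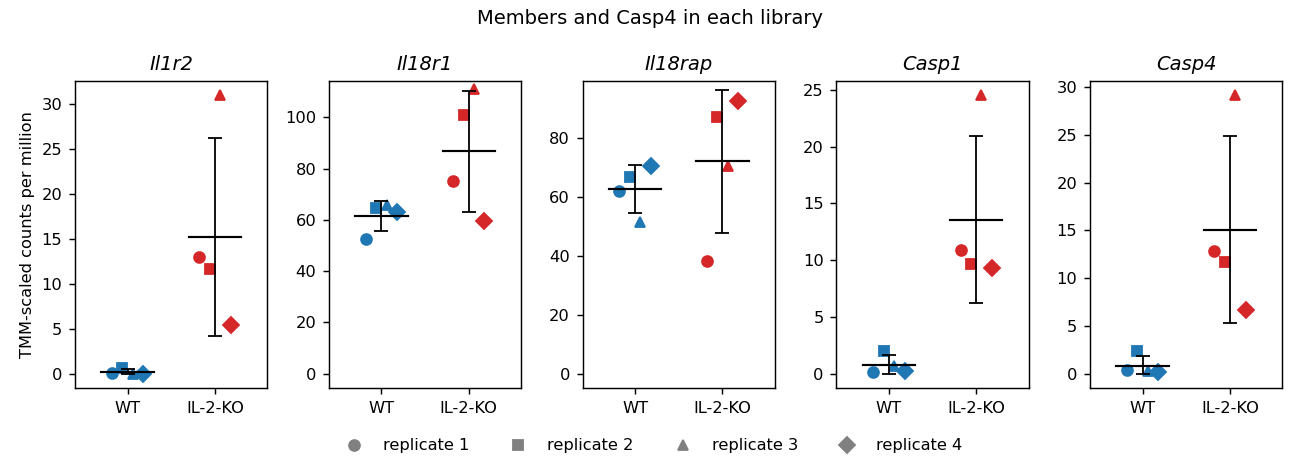
TMM-scaled CPM (vertical axes, linear, one scale per gene) of Il1r2, Il18r1, Il18rap, Casp1 and Casp4 in 4 WT (blue) and 4 IL-2-KO (red) libraries, 1 symbol per replicate number, with lines at group means and bars of 1 SD, cut at 0. Il1r2, Casp1 and Casp4 separate the groups, with IL-2-KO replicate 3 highest at 31.0, 24.6 and 29.2, while Il18r1 and Il18rap overlap.

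Transcripts of other cell types stood high in the libraries where some members did. The CD8 T cell markers, with all 6 analysed, summed to 4723 to 5587 CPM in WT and 4213 to 5031 in IL-2-KO. All 6 had lower means in IL-2-KO and none passed, and the groups of Cd3d did not overlap. Of 13 monocyte, macrophage and dendritic cell markers, 5 were analysed. Their sum was 127 CPM in WT replicate 2 and 438 in IL-2-KO replicate 3, against 34.1 to 38.5 in WT replicates 1, 3 and 4 and 37.8 to 49.2 in IL-2-KO replicates 1, 2 and 4. The CD4 and regulatory T cell markers, 6 of 7 analysed, summed to 72.0 and 77.9 CPM in the same 2 libraries and to between 15.9 and 25.8 in the others. Foxp3, the defining factor of regulatory T cells, held 3.92 to 4.49 CPM in WT and 2.69 to 3.56 in IL-2-KO (limma adjusted p = 0.0750). Cd4, Zbtb7b, Cd40lg, Ikzf4 and Il2ra had higher means in IL-2-KO instead, and none of the 6 passed. Of 14 neutrophil markers only S100a9 was analysed, at 0.241 to 6.07 CPM in WT and 0.503 to 5.38 in IL-2-KO, and of 9 natural killer cell markers 3 were, summing to 3.17 to 17.8 CPM in WT and 6.13 to 43.3 in IL-2-KO. Gamma-delta T cell markers, 2 of 7 analysed, summed to 31.6 to 72.1 CPM in WT and 96.7 to 106 in IL-2-KO without overlap, nearly all from Cd163l1, which passed (limma adjusted p = 0.00483). The other, Sox13, went the other way, from a mean of 0.917 CPM in WT to 0.665 in IL-2-KO, with overlapping groups and no test. Of the natural killer cell markers Klre1 rose, from 0.576 to 3.12 CPM over the WT libraries to 2.01 to 13.1 over IL-2-KO (limma adjusted p = 0.0352). The plasma cell marker Derl3, 1 of 5 analysed, rose from 0.479 to 1.69 CPM to 1.90 to 5.32 (limma adjusted p = 0.0125). Klre1 and Derl3 passed the filter on low values only with the IL-2-KO libraries, which limits their tests. Of 6 mast cell and basophil markers 2 were analysed. Kit rose from 7.26 to 10.7 CPM to 14.4 to 30.4 (limma adjusted p = 0.00281), and Cpa3 fell from 7.09 to 8.71 CPM to 2.96 to 4.55 (limma adjusted p = 0.00259), and the groups of Derl3, Kit and Cpa3 did not overlap. The part of these cells in the results was not tested. WT replicate 2 and IL-2-KO replicate 3 are called the marker-rich pair. No marker analysed was at 0 in every library.

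With both of those libraries left out, the log2 difference was 4.24 for Il1r2 (4.40 with all 8) and 3.73 for Casp1 (3.63 with all 8). Il1r2 then had means of 0.01996 ± 0.0346 and 9.96 ± 4.03 CPM (SD, n = 3 each), 18.9-fold on the log2(CPM + 0.5) scale. The remaining 3 WT libraries held 1 read of Il1r2 together and the 3 IL-2-KO libraries 481, a ratio of 493 with an exact 95% interval of 88.1 to 19519. Casp1 stood at 0.311 ± 0.281 and 9.93 ± 0.824 CPM, 13.3-fold, and its IL-2-KO values spread less than with replicate 3. Both kept their groups apart, as 20.1% of all genes did in that direction among these 6 libraries. Il18r1 had means of 60.5 ± 6.91 and 78.7 ± 20.9 CPM and a log2 difference of 0.35, and Il18rap 61.3 ± 9.55 and 72.6 ± 29.8 with 0.15.

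**Figure D2:**
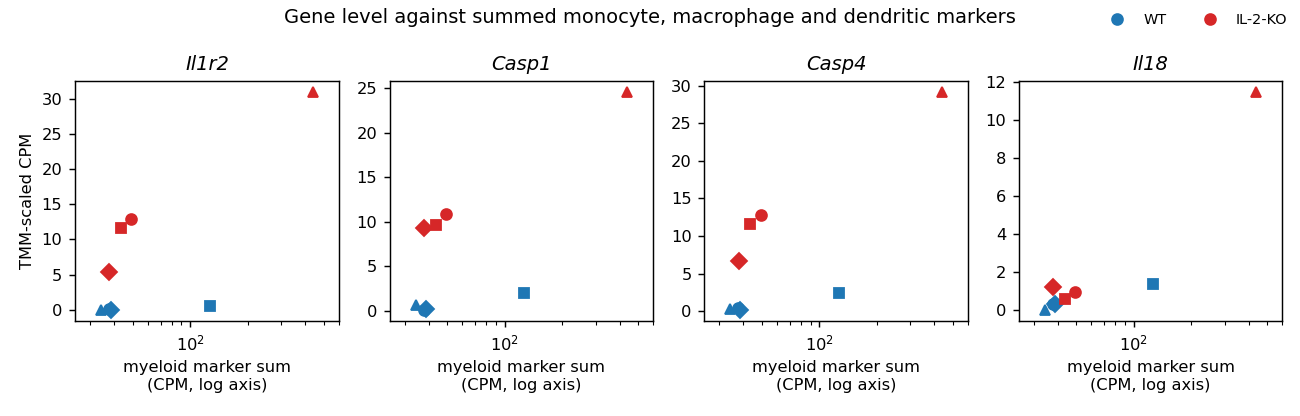
Level of Il1r2, Casp1, Casp4 and Il18 (vertical axes, TMM-scaled CPM) against the summed level of 5 monocyte, macrophage and dendritic cell markers (horizontal axes, CPM, log scale) in WT (blue) and IL-2-KO (red) libraries, with circles, squares, triangles and diamonds for replicates 1 to 4. IL-2-KO replicates 1, 2 and 4 lie at 37.8 to 49.2 on the marker axis and above all WT libraries for Il1r2, Casp1 and Casp4, and replicate 3 stands apart at 438.

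The ligand side of the pathway was thinly covered. Of 11 ligand and antagonist genes in the list, 3 were analysed and the other 8, among them Il1b, Il1rn and Il33, were not analysed here. Il18 was at 0.299, 1.35, 0 and 0.301 CPM in WT and at 0.938, 0.542, 11.5 and 1.17 in IL-2-KO replicates 1 to 4. All libraries but IL-2-KO replicate 3 were thus at or below 1.35 CPM, and Il18 did not pass the filter. In the 6 libraries outside the marker-rich pair, Il18 had means of 0.200 ± 0.173 CPM in WT and 0.885 ± 0.319 in IL-2-KO (SD, n = 3 each). These rest on 10 and 44 reads. The groups did not overlap there, as was so for 20.1% of all genes tested in that direction. Il1a stood at 1.08 ± 0.504 CPM in WT and 1.70 ± 1.25 in IL-2-KO (limma, Benjamini-Hochberg adjusted p = 0.501). Il18bp, which encodes the soluble inhibitor of interleukin-18, stood at 7.12 ± 0.701 and 9.53 ± 2.48 CPM (limma adjusted p = 0.188). Neither passed.

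No other receptor chain that was tested passed. Il1rap, the accessory chain of the interleukin-1 receptor, held 15.8 to 18.2 CPM in WT and 16.0, 24.6, 16.0 and 24.3 in IL-2-KO. IL-2-KO replicates 2 and 4 stood above all WT libraries and replicates 1 and 3 within their range (log2 difference 0.19, limma 95% interval -0.17 to 0.55, adjusted p = 0.452). Il1rl2, the receptor of interleukin-36, went from 8.40 ± 1.83 to 5.78 ± 1.81 CPM (log2 difference -0.52, limma adjusted p = 0.150). Sigirr, a family member that restrains signalling, stood at 121 ± 2.45 and 107 ± 14.3 CPM (log2 difference -0.18, adjusted p = 0.211). Per kilobase of exon Sigirr had the highest level of the 6 receptor chains, 52.6 CPM in WT and 46.8 in IL-2-KO. Il1r1, the signalling receptor that Il1r2 competes with, and Il1rl1 were not analysed here.

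In the receptor cluster the large difference was that of Il1r2. From the start of Il1r2 to the end of Il18rap the cluster spans 467 kb. Within 500 kb of the 3 receptor members there were 14 protein-coding genes, members included, of which 6 were analysed. Next to Il1r2, Map4k4, a kinase gene, held 487 ± 10.6 CPM in WT and 462 ± 23.3 in IL-2-KO (log2 difference -0.08, limma adjusted p = 0.461). Beyond Il18rap, Mfsd9 stood at 1.59 ± 0.591 and 1.99 ± 0.490 CPM (0.27, adjusted p = 0.484). Il18r1 begins 133 bases after the annotated end of Il1rl1 on the same strand. Of the 50-base stretches of the annotated transcripts, 0% of those of Il1r2, Il18rap and Casp1 and 0.52% of those of Il18r1 also occurred in a transcript of another gene.

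**Figure D3:**
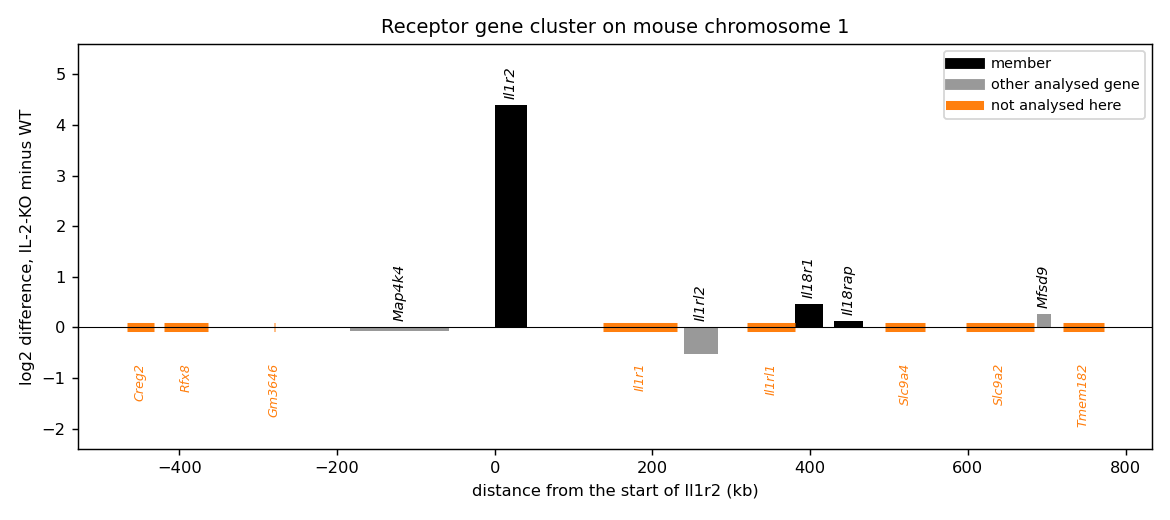
Log2 difference of IL-2-KO minus WT on the (CPM + 0.5) scale (vertical axis) for the protein-coding genes within 500 kb of Il1r2, Il18r1 and Il18rap, placed by distance from the start of Il1r2 in kb (horizontal axis), with bars as wide as the gene. Il1r2 stands at 4.40, Il18r1 at 0.46 and Il18rap at 0.13, and genes in orange were not analysed here.

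On chromosome 9, Casp4 was higher in IL-2-KO, as Casp1 was. Its product, a sensor of bacterial lipopolysaccharide, cleaves gasdermin D, as caspase-1 does. WT replicates 1 to 4 held 0.359, 2.36, 0.230 and 0.181 CPM of Casp4 and IL-2-KO replicates 12.8, 11.6, 29.2 and 6.71. It rose 13.0-fold on the log2(CPM + 0.5) scale (log2 difference 3.70 ± 0.51 SE, limma adjusted p = 8.67e-04, higher in 4 of 4 IL-2-KO libraries than in any WT library). Of the WT libraries only replicate 2 reached 1 CPM. Casp4 thus passed the filter on low values through the IL-2-KO libraries, and its test carries that limit. Casp1 over Casp4 within a library was 0.848, 0.828 and 0.842 in IL-2-KO replicates 1 to 3 and 1.38 in replicate 4. In WT the ratio rested on few reads. No 50-base stretch of Casp1 occurred in a transcript of Casp4. In the 6 libraries outside the marker-rich pair Casp4 was 13.96-fold higher. With all 8 its log2 difference was 4.53 with 0.1 added in place of 0.5 and 2.52 with 2 added. The ratio of its pooled reads was 23.5 (exact 95% interval 17.2 to 32.9), and 39.7 (23.0 to 75.2) in the 6 libraries. Casp12, the third gene of the group, was not analysed here.

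Among the other genes of caspases and inflammasomes, 3 of 12 tested rose and 1 fell, Casp4 included, with the limit on its test given above. Over all genes tested limma called 11.1% higher and 8.03% lower. The lists, here and below, were chosen with earlier results of these data known, so their counts are a description. The median log2 difference of the 12 was 0.21, against -0.01 over all genes. Pycard, the adaptor ASC that joins sensors to caspase-1, rose from 45.4 ± 5.77 to 61.8 ± 10.5 CPM (1.35-fold, limma adjusted p = 0.0471), and its groups overlapped. Naip2, a sensor of bacterial secretion systems, rose from 5.42 ± 0.980 to 9.43 ± 2.35 CPM (1.66-fold, limma adjusted p = 0.0310). It belongs to a family of close copies whose reads may be shared, so its value is uncertain. In the 6 libraries outside the marker-rich pair, Pycard and Naip2 did not pass, at log2 differences of 0.37 and 0.58 against 0.43 and 0.73 with all 8. Txnip, a thioredoxin-binding protein reported to act on the NLRP3 inflammasome, fell by 0.65 on the log2 scale, from 929 ± 113 to 602 ± 162 CPM (limma adjusted p = 0.0212), with IL-2-KO replicate 4, at 842, inside the WT range of 802 to 1039. Gsdmd, the pore-forming substrate of both caspases, stood at 81.8 ± 6.27 and 98.9 ± 11.5 CPM and did not pass (limma adjusted p = 0.0784). Nlrp3, Nlrp1a and Nlrp1b were not analysed here.

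Most signalling genes of the pathway did not pass. Among 15 genes with a test, 2 rose and 2 fell, near the 11.1% higher and 8.03% lower over all genes, and the median log2 difference was -0.06. Myd88, the adaptor of both receptors, rose 1.34-fold. Its WT values were 61.8, 62.0, 55.3 and 61.7 CPM and its IL-2-KO values 83.2, 79.8, 86.7 and 74.2 (limma adjusted p = 0.00377), with no overlap. Irak4, the kinase that acts first after Myd88, rose 1.24-fold, from 38.5 ± 2.95 to 47.7 ± 3.59 CPM (limma adjusted p = 0.0350). Ikbkb, the kinase that releases NF-kB, fell by 0.38 on the log2 scale, from 391 ± 10.1 to 301 ± 15.4 CPM (limma adjusted p = 0.00303), and all 4 IL-2-KO values lay under all WT values. Peli1, a ubiquitin ligase of the IRAK complex, fell by 0.38, from 526 ± 62.3 to 402 ± 45.8 CPM (limma adjusted p = 0.0306), with overlapping groups. In the 6 libraries outside the marker-rich pair, Irak4 and Peli1 did not pass, at log2 differences of 0.29 and -0.35 that were close to those with all 8. Irak3, an inhibitor of the pathway, was not analysed here.

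Of 13 NF-kB factor and feedback genes 4 rose and none fell, with a median log2 difference of 0.31, against 11.1% higher and 8.03% lower over all genes. Nfkb2 and Relb, the subunits of the alternative NF-kB pathway, rose 1.96-fold and 1.81-fold. Nfkb2 held 59.6, 62.5, 63.5 and 64.4 CPM in WT and 116, 125, 146 and 108 in IL-2-KO (limma adjusted p = 1.28e-04). Relb held 58.4, 69.4, 55.7 and 58 CPM in WT and 113, 103, 141 and 87.2 in IL-2-KO (limma adjusted p = 0.00199). In both genes replicate 3 was the highest and replicate 4 the lowest IL-2-KO library, and the groups did not overlap. Nfkbie, an inhibitor of NF-kB, rose 1.68-fold (44.6 ± 4.03 to 76.6 ± 18.4 CPM, limma adjusted p = 0.00886). Tnip1, which works with the feedback inhibitor TNFAIP3, rose 1.24-fold (limma adjusted p = 0.0310) and did not pass with the marker-rich pair left out, at a log2 difference of 0.25 against 0.31. These genes answer to many receptors besides those of interleukin-1 and interleukin-18, and their list was chosen with earlier results of these data known.

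Of 7 tested partners of interleukin-18 in the interferon gamma response, 4 rose, none fell and 3 did not pass, against 11.1% higher and 8.03% lower over all genes. Their median log2 difference was 0.28, in a list chosen with earlier results of these data known. Il12rb1, a chain of the interleukin-12 receptor, rose 2.03-fold, from 26.4, 20.2, 21.3 and 24.4 CPM in WT to 47.7, 52.6, 43.6 and 45.4 in IL-2-KO (limma adjusted p = 1.95e-04). Tbx21, which encodes the transcription factor T-bet, rose 2.41-fold, from 11.9 to 22.2 CPM over the WT libraries to 35.5 to 45.6 over the IL-2-KO libraries (limma adjusted p = 0.00285). For both, each IL-2-KO library stood above each WT library. Jak2, a kinase bound to the interleukin-12 receptor, rose 1.21-fold (limma adjusted p = 0.0191). Ifng rose 3.16-fold (7.81 ± 6.13 to 22.8 ± 11 CPM, limma adjusted p = 0.0311), with IL-2-KO replicate 1 below WT replicate 2. The chain specific to interleukin-12, Il12rb2, stood at 4.99 ± 0.672 and 5.6 ± 1.55 CPM (limma adjusted p = 0.732), and Stat4, its transcription factor, at 287 ± 23.1 and 332 ± 47.6 (limma adjusted p = 0.201).

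Over the 6 lists, 52 genes besides the members were tested, of which 13 rose, 3 fell and 36 did not pass. Their median log2 difference was 0.15. Over all genes the median was -0.01, with 11.1% higher and 8.03% lower. Because the lists were chosen with earlier results of these data known, nothing is read from their counts against these shares. Casp4, which passed the filter on low values through the IL-2-KO libraries, is counted among the 13. In the 6 libraries outside the marker-rich pair, 11 of these 16 genes passed again and Nfkb1 was added. Among all 11530 genes, 10.7% then passed as higher and 7.34% as lower.

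**Figure D4:**
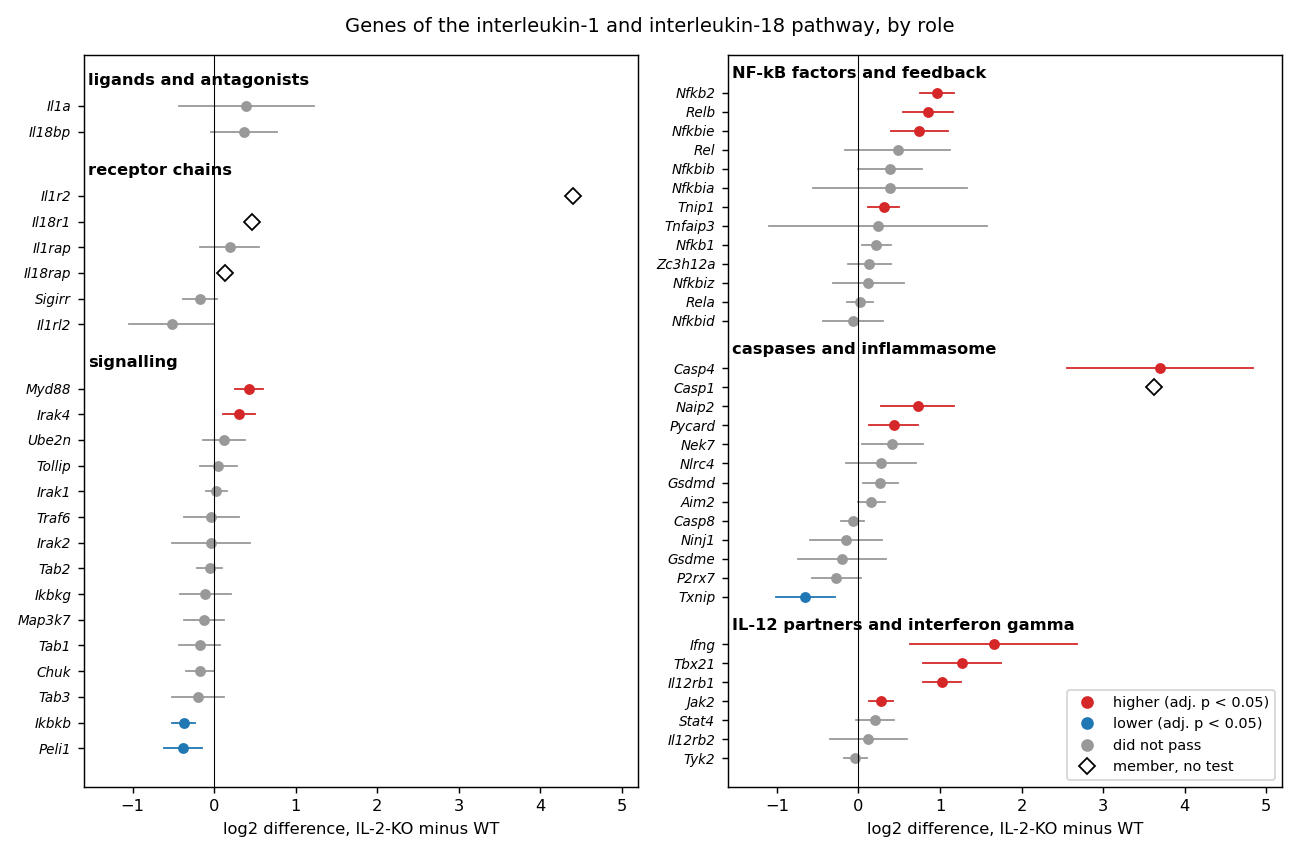
Log2 difference of IL-2-KO minus WT on the (CPM + 0.5) scale (horizontal axes) for each tested gene of 6 lists of the pathway, with limma 95% intervals, unadjusted, for genes that are no members. Red and blue points passed at an adjusted p under 0.05, grey points did not, and open diamonds are members, which carry no test. Casp4 at 3.70 stands beside Casp1 at 3.63, apart from the other tested genes.

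The genes with the most similar profiles were found by the root mean square difference of gene-centred log2(CPM + 0.5) values over the 8 libraries, with the members left out. For Il1r2 they were Gzmb, a protease of cytotoxic granules (0.374), Casp4 (0.451) and Ly6a, the surface antigen Sca-1 (0.465), against a median of 2.32 over 11526 genes. Gzmb held 0.750 ± 0.293 CPM in WT and 26.1 ± 19.8 in IL-2-KO. For Casp1 they were Casp4 (0.357), Penk, which encodes proenkephalin (0.449), and Twist2, a transcription factor gene (0.462), against a median of 1.95. Twist2 held 0.869 ± 0.454 and 13.7 ± 7.55 CPM. For Il18r1 they were Fam221a (0.106), Sestd1 (0.140) and Dynlt3, a dynein light chain (0.143), against a median of 0.407. For Il18rap they were Rnf139, a ubiquitin ligase (0.135), Ern1, the stress sensor IRE1 (0.137), and Ptpn4, a phosphatase (0.155), against 0.432. Ptpn4 held 31.9 ± 3.43 CPM in WT and 34.8 ± 9.52 in IL-2-KO, lowest in IL-2-KO replicate 1 and highest in replicate 4, as Il18rap was. Il1r2 and Casp1 were chosen on the group contrast, and centring over both groups keeps that contrast in the measure. Their nearest genes are thus bound to have a group difference of similar size, such as 4.20 for Gzmb and 3.70 for Casp4 (log2). Nothing further is read from this likeness.

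The targeted gene was listed at similar levels in both groups. Il2 was at 5.88 ± 0.268 CPM in WT and 6.28 ± 1.92 in IL-2-KO (log2 difference 0.04, limma 95% interval -0.40 to 0.49, adjusted p = 0.907). The table gives a single value for the whole gene and the deleted part is not stated, so the genotype labels could not be checked by it.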

How the data were processed

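The authors deposited 1 table of TMM-scaled signal, linear counts per 1000000 (CPM) after TMM scaling of library sizes, per its name. Per the submitters' processing notes, featureCounts, limma 3.34.9, R 3.4.3, GRCm38 and mm10 were used, without roles; the aligner and the strand setting are not given in the sources used here. Steps between low values gave reads: 11.9 to 18.4 M counts (M, 1000000) per library, so that 1 CPM is 11.9 to 18.6 reads. Whole reads (within 0.001) made up 54.6% to 65.0% of values under 20, and 100% were whole hundredths of a read (within 0.05 of a hundredth), so no count test was run. The planned test for CPM was kept although some columns sum to over 1000000.

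Of the identifiers, 11651 matched RefSeq (GRCm38.p6) and 72 did not. Values were taken as log2(CPM + 0.5), genes with at least 1 CPM in at least 4 of 8 libraries kept (11530), and IL-2-KO compared with WT by limma 3.58.1 (R 4.3.3; trended empirical Bayes, Benjamini-Hochberg over all genes, threshold 0.05). The code was tried on simulated counts with the same dispersion for every gene, which does not measure its error on these libraries. Samples were grouped by their titles. The design text calls them biological replicates; batches are not given. It names a stranded total RNA kit. With a library left out, the same genes were tested. Exon lengths and UTRs are those of GENCODE M21. Genes named are the members, up to 6 passing genes per list, fixed counterparts, neighbours within 500 kb, the 3 nearest profiles per member and Il2. The members and lists were chosen with earlier results of these data known. Alternatives were other pseudocounts, filters, scalings and variance models, a cell number covariate, a replicate block and left-out libraries.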

Additional observations from a re-analysis of the deposited data

Results flagged for a closer look

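Of 56 groups of 4 libraries checked (28 genes in both genotypes), 6 had 1 library far from the other 3, where chance gives about 1 in 20. Il1r2 in WT replicate 2 was at 0.590 CPM, against 0 to 0.0599 in the other WT libraries. Casp4 in the same library was at 2.36 CPM, against 0.181 to 0.359. In IL-2-KO replicate 3, Casp1 was at 24.6 CPM where IL-2-KO replicates 1, 2 and 4 held 9.28 to 10.9. In that library Ifng was at 39.3 CPM against 15.5 to 18.4. Il18 was at 11.5 CPM there, against 0.542 to 1.17. Myd88 was lowest in WT replicate 3, at 55.3 CPM against 61.7 to 62.0. The first 5 lie in the 2 libraries whose monocyte, macrophage and dendritic cell markers summed to 127 and 438 CPM, and the part of those cells was not tested.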

How the results depend on the processing

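All 4 members kept the sign of their log2 difference under every alternative run, except Il18rap, which was -0.15 in the 4 libraries of over 2 M sorted cells (M, 1000000) and -0.01 without IL-2-KO replicate 4. With pseudocounts of 0.1 and 2 the log2 difference was 6.12 and 2.79 for Il1r2, and 4.49 and 2.46 for Casp1, because WT was near 0. With 1 library left out it ranged from 3.98 to 4.78 for Il1r2, 0.32 to 0.62 for Il18r1, -0.01 to 0.41 for Il18rap and 3.31 to 4.05 for Casp1.

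Of the other pathway genes 13 rose and 3 fell. In the 4 libraries of over 2 M cells 4 rose and 0 fell, and over all genes 322 rose and 62 fell, against 1285 and 926 with all 8. This is a comparison of 2 against 2. With 1 library left out the pathway counts ranged from 7 to 13 higher and 1 to 3 lower. They were 8 and 2 without WT replicate 1, 8 and 1 without WT replicate 3, 7 and 1 without IL-2-KO replicate 2 and 9 and 1 without IL-2-KO replicate 3. Over all genes the counts ranged from 846 to 1295 higher and 439 to 938 lower, at 846 and 439 without WT replicate 3, 562 lower without WT replicate 1 and 466 lower without WT replicate 4. With the replicate number as a block 911 genes rose and 486 fell, and of the pathway 9 and 1. No pairing by number is stated. Same-numbered libraries deviated with correlations of 0.0842, -0.53, -0.402 and 0.394, and WT replicate 2 with IL-2-KO replicate 3 at 0.655. Those 2 libraries are the marker-rich pair, so the correlations cannot decide whether the samples are paired.

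Nfkb2, Relb, Casp4 and Il12rb1 passed under all 19 alternatives, and Ikbkb, Myd88, Nfkbie and Tbx21 under 18. Those 4 did not pass in the 4 larger libraries, at log2 differences of -0.34, 0.39, 0.67 and 1.29 against -0.38, 0.42, 0.75 and 1.27 with all 8. Casp4, at 2.36 CPM or less in WT, met the filters on low values through the IL-2-KO libraries, which limits its calls. Lost calls numbered 12 for Pycard, 10 for Irak4 and Naip2, 9 for Peli1 and Tnip1, 7 for Txnip and Ifng and 6 for Jak2. Gsdmd passed without IL-2-KO replicate 4. The causes were not tested. At a WT depth where 1 CPM is 11.9 to 17.4 reads, differences among WT libraries of Il1r2 rest on 0 to 7 reads.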
